A study of Mus musculus with 2 samples.

Results

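The genes described here are those of the neutrophil-attracting chemokines and of granulocyte colony-stimulating factor (G-CSF): the ligands Cxcl1, Cxcl2 and Cxcl3, the receptors Cxcr2 and Cxcr4, and Csf3, which encodes G-CSF, with its receptor gene Csf3r. They are 7 of the 31053 genes measured, found by symbol in the deposited gene list. They were chosen by 2 measured values, the share of granulocytes and the level of Csf3, which differed between the libraries, so these 2 differences are given below as a description and support nothing. The data were single-cell RNA sequencing of live cells carrying the leucocyte protein CD45, sorted from tumours of B16, a mouse melanoma line, with 1 library per group and the cells of several mice pooled in each. The WT mice were Mettl3 fl/fl Lyz2 +/+ and the KO mice Mettl3 fl/fl Lyz2 cre/+, all aged 8 weeks. The floxed Mettl3 alleles were thus common to both groups, and the KO mice had in addition Cre in place of 1 copy of Lyz2, which is active in macrophages, monocytes and granulocytes, so that the deletion is not confined to 1 cell type. Mettl3 encodes the enzyme that places the N6-methyladenosine mark on RNA.

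CXCL1, CXCL2 and CXCL3 are small secreted proteins that bind CXCR2 on neutrophils and draw them into inflamed tissue and tumours. G-CSF drives the production of neutrophils in the bone marrow and their release into blood, and acts through the receptor encoded by Csf3r. CXCR4, the receptor of CXCL12, holds neutrophils in the marrow and is found on many leucocytes.

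Cxcl3, Cxcl1 and Cxcl2 lie on chromosome 5 of GRCm38, on the plus strand, at 90786103 to 90789600, 90891241 to 90893115 and 90903871 to 90905938, in a stretch that also holds the related ligands Cxcl5, Ppbp, Pf4 and Cxcl15. Csf3 is on chromosome 11 (98701263 to 98703629), Csf3r on chromosome 4 (126024550 to 126044440), and Cxcr2 and Cxcr4 are on chromosome 1 (74153989 to 74161246, and 128588199 to 128592293 on the minus strand). The stretches from 120 to 31 bases before the RefSeq start of the 3 ligand genes are shown, 5′ to 3′ on GRCm38.p6, because they share a run of 11 bases, in capitals, that holds a match on each strand to the consensus of NF-kB, a transcription factor of inflammation.
Cxcl1, chr5:90891125-90891214, plus strand: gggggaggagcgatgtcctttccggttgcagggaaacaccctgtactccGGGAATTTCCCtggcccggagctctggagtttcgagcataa
Cxcl2, chr5:90903779-90903868, plus strand: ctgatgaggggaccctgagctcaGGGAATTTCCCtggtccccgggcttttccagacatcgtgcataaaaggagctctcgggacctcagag
Cxcl3, chr5:90785981-90786070, plus strand: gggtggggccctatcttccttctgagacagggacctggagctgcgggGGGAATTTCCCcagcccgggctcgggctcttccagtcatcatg
The match GGGAATTTCC began 71 bases before the start in Cxcl1, 97 in Cxcl2 and 73 in Cxcl3, and its overlapping partner on the other strand, GGGAAATTCC, lay 1 base further on. Of 32851 RefSeq promoters of 300 bases (250 before to 50 after the start), 29 (0.0883%) held GGGAATTTCC on either strand and 1480 (4.51%) a match to the consensus. The promoters of Cxcr2, Cxcr4 and Csf3r held no match to the consensus, and that of Csf3 was not analysed here. A match is a run of letters and was not tested as a site.

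The WT-labelled library held 5895 cell barcodes and 45963969 unique molecular identifiers (UMIs, each standing for 1 captured RNA molecule), the KO-labelled library 8446 and 54052317, and 13 barcode sequences occurred in both. After filtering, 5405 and 7625 cells remained, with medians of 4148 and 3567 UMIs per cell. Levels are given as CPM, the UMIs of a gene per 1000000 UMIs of a cell class, with exact 95% Poisson intervals in brackets. Ratios between libraries are log2 of KO-labelled over WT-labelled with exact conditional binomial intervals, and shares of cells have exact Clopper-Pearson intervals. All of these cover counting error only, and UMIs of 1 cell are not independent of each other. The spread from mouse to mouse is unknown with 1 library per group. No test was run, and every difference is one between these 2 libraries. Mettl3 stood at 9.48 (8.57 to 10.5) CPM in the WT-labelled and 10.4 (9.49 to 11.3) CPM in the KO-labelled library, and at 9.82 and 10.9 CPM in macrophage-like cells, so the targeted gene was not lower where the label says KO. Counts near the 3′ end need not cover the deleted part of the gene. Lyz2, of which the KO mice keep 1 intact copy, was lower in the KO-labelled library, at 2041 against 4442 CPM. The libraries are named by their labels throughout for this reason, and so are all directions below.

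Cells were assigned 1 by 1 to classes by marker genes that included none of the 7 genes, and a class is a range on a marker score. Granulocyte-like cells were 593 of 5405 cells labelled WT (11.0%, 10.2 to 11.8) and 275 of 7625 labelled KO (3.61%, 3.20 to 4.05), and they held 2.36% and 0.848% of the UMIs, at median depths of 1327 and 1064 UMIs. Of these cells 14 and 17 lay within 0.05 of the score that would have given them another class. All 13 granulocyte markers were detected in them in both libraries. The markers used to assign cells, S100a8 among them, are found there by design. Retnlg, Lcn2, Wfdc21, Slpi and Ly6g were not used to assign cells. S100a8, a calcium-binding protein abundant in neutrophils, stood at 69357 and 60084 CPM there against 466 and 113 CPM in all other cells, and Retnlg, a marker of neutrophils that did not enter the gate, at 4254 and 3517 against 34.4 and 5.10 CPM. Macrophage markers had a median over these cells of 5.71 per 10000 UMIs in the WT-labelled and 0 in the KO-labelled library, monocyte markers 7.46 and 8.49, and granulocyte markers 1204 and 1200. With both libraries counted together, 848 of these cells fell in 2 clusters of a separate unsupervised clustering that had been made without the 7 genes.

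The level of Cxcl2 was highest in granulocyte-like cells and differed there between the libraries. These cells held 52.9% of all Cxcl2 UMIs labelled WT but 24.8% of those labelled KO, where macrophage-like cells held 31% (labelled WT 24.6%). Cxcl2 stood at 15579 (15334 to 15827) CPM in granulocyte-like cells labelled WT (15384 UMIs) and 7213 (6953 to 7481) CPM in those labelled KO (2892 UMIs). The log2 ratio was -1.11 (-1.17 to -1.05), a level 2.16 times as high in the WT-labelled library. Both the share of cells that held a UMI and the amount per cell were lower where the label says KO: 456 of 593 cells (76.9%) and 150 of 275 (54.5%) held Cxcl2. When every cell was thinned to 1000 UMIs, which left out 127 and 120 shallower cells, the shares were 75.3% (71.1 to 79.2) and 55.5% (47.3 to 63.5). T-like cells, which are not a usual source of Cxcl2, gave 5.25% and 2.03% at the same depth, from unthinned medians of 2677 and 2313 UMIs and unthinned shares of 9.67% and 4.97%.

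Of the 11 gated classes with at least 20 cells in each library, monocyte-like and then macrophage-like cells came next for Cxcl2 in both libraries, with intervals that did not overlap. Ungated cells had more, 1334 and 522 CPM. Macrophage-like cells, which were far deeper at medians of 9648.5 and 7051 UMIs, had 343 (335 to 351) and 188 (182 to 195) CPM, a log2 ratio of -0.86 (-0.92 to -0.81). Monocyte-like cells had 387 (368 to 407) and 265 (254 to 277) CPM, a log2 ratio of -0.54 (-0.64 to -0.45). Within the 3 monocyte-like clusters, whose shares differed between the libraries, it was -1.63 (-1.93 to -1.33), -0.38 (-0.57 to -0.19) and -1.49 (-1.65 to -1.34). Cxcl2 was lower in the KO-labelled library in these 3 gated classes, but the size in macrophage-like cells depended on the processing. It was -0.27 with classes taken from clusters, and -1.32 in the same gated cells thinned to 500 UMIs, which gives each cell equal weight. Single cells held a visible part of it outside granulocytes: 1 macrophage-like cell labelled WT held 343 of 7148 Cxcl2 UMIs and 1 monocyte-like cell 180 of 1580. In mature DC-like cells, dendritic cells marked by Ccr7 and Fscn1, the level was 205 (171 to 244) CPM labelled WT and 15.7 (8.36 to 26.9) labelled KO. But 9 and 7 cells held all of it, and 1 cell held 67 of the 126 UMIs labelled WT. In cDC2-like cells, another dendritic class, Cxcl2 went the other way, at 12.1 CPM labelled WT and 40.2 labelled KO. The log2 ratio there was 1.73 (0.67 to 2.93), from 10 and 31 UMIs.

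The level of Cxcl3 was also highest in granulocyte-like cells, which held 50.3% of its UMIs labelled WT and 13.1% of those labelled KO, where macrophage-like cells held 41% and monocyte-like cells 21.3%. Granulocyte-like cells labelled WT had 1349.9 (1278 to 1424) CPM (1333 UMIs in 159 cells) and those labelled KO 469 (404 to 541) CPM (188 UMIs in 28 cells). The log2 ratio was -1.53 (-1.75 to -1.30), the 8th lowest of the 2633 genes ranked in this class, where Cxcl2 was the 26th lowest. It stood at -1.05 with a stricter marker gate and at -2.47 without the 5 cells of each library that held the most Cxcl3, so its size, not its direction, rests on few cells. In thinned cells the shares with a UMI were 26% (22 to 30.2) and 10.3% (6.02 to 16.2), against 0.188% and 1.11% in T-like cells, and unthinned 26.8% and 10.2% against 1.09% and 1.89%. Monocyte-like cells had 54.6 (47.7 to 62.3) and 36.7 (32.7 to 41.1) CPM, and macrophage-like cells 33.8 (31.3 to 36.4) and 30.5 (28.1 to 33.1) CPM. The ratio in macrophage-like cells, -0.15 (-0.31 to 0.012), had an interval that included 0, and stood at 0.36 with classes taken from clusters and at -0.75 with a stricter marker gate. That in monocyte-like cells, -0.57 (-0.83 to -0.32), turned to 0.82 with a stricter marker gate and to 0.47 without the 5 cells of each library that held the most Cxcl3. Cxcl2 and Cxcl3 transcripts share 126 runs of 50 bases (5.84% and 3.51% of the runs of each). How many reads fell in these, and how they were counted, was not examined.

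Cxcl1 was rare. It gave 266 UMIs in all kept cells labelled WT and 188 in those labelled KO. Macrophage-like cells held 53.4% and 42.6% of these UMIs, at 6.8 (5.73 to 8.02) and 4.16 (3.3 to 5.18) CPM, a log2 ratio of -0.71 (-1.12 to -0.30). Per UMI the level was higher in granulocyte-like cells, at 28.4 (18.8 to 41) and 22.4 (10.3 to 42.6) CPM, but these rest on 28 UMIs in 13 cells and 9 in 3, and the interval of their ratio, -0.34 (-1.61 to 0.79), included 0. Fibroblast-like cells, which a CD45 sort should leave out, numbered 9 and 13 and held 7 and 14 Cxcl1 UMIs, at 47.5 (19.1 to 97.9) and 96.7 (52.9 to 162) CPM, while Cxcl3 gave 0 and 1 UMIs and Csf3 0 and 0 there.

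**Figure D1:**
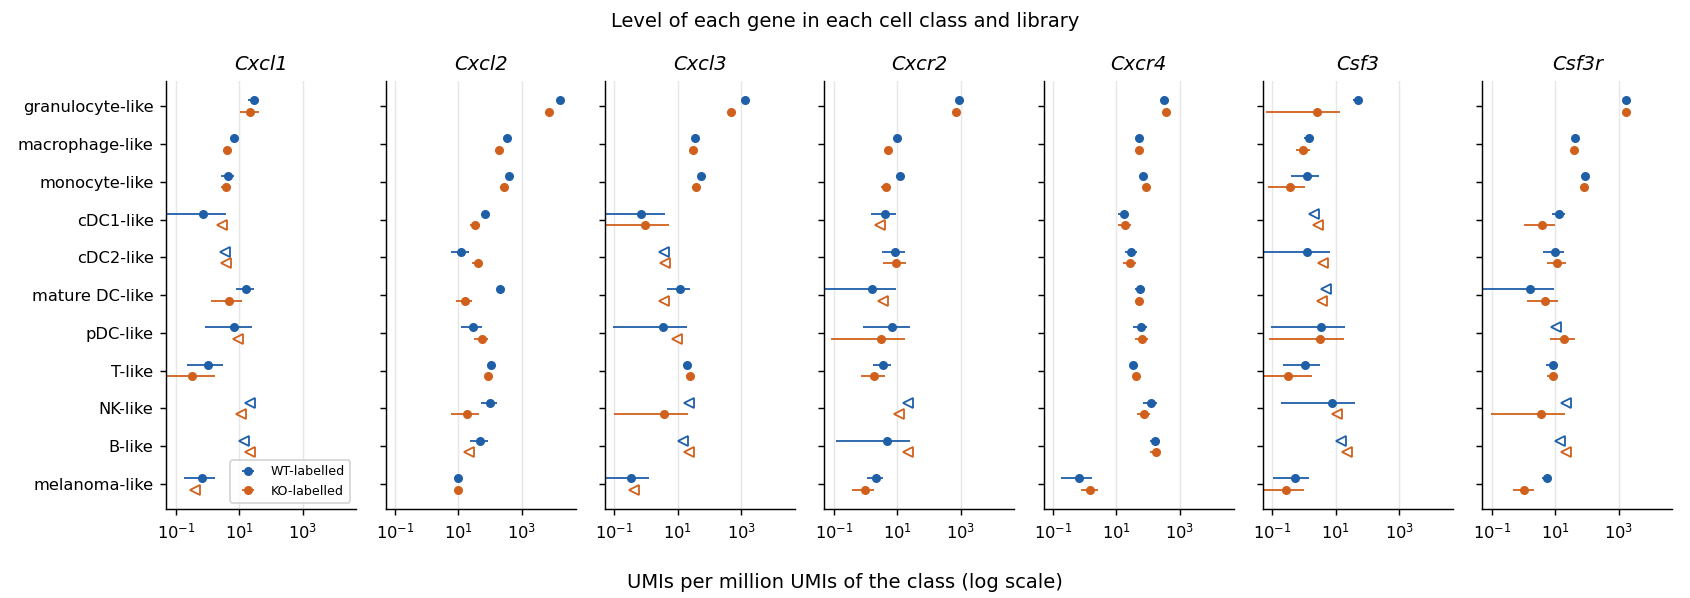
Level of each of the 7 genes in the 11 cell classes with at least 20 cells in each library, in CPM on a log axis, for the WT-labelled (blue) and KO-labelled (orange) library. Bars are exact Poisson intervals and open triangles mark 0 UMIs, placed at the level that 3 UMIs would give. Granulocyte-like cells lead for every gene but Csf3 in the KO-labelled library, which rests on 1 UMI there, and Cxcr4 is spread over more classes than Cxcr2 or Csf3r.

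Cxcr2, the receptor of these ligands, had its highest level in granulocyte-like cells, which held 69.7% and 60.3% of its UMIs, against 16.7% and 21.3% in macrophage-like cells. The level was 867 (809.7 to 927) CPM labelled WT and 713 (633 to 801) CPM labelled KO. The log2 ratio there was -0.28 (-0.48 to -0.086). In cells thinned to 1000 UMIs, 47.6% (43 to 52.3) and 38.1% (30.4 to 46.2) held a UMI, with intervals that overlapped, and T-like cells gave 0% and 0.185%, where 0 of 533 cells allows a share of up to 0.563%. Unthinned, the shares were 56.3% and 48.4% in granulocyte-like and 1.09% and 0.515% in T-like cells. Thinned to 500 UMIs, the ratio turned to 0.065, and in the clusters named by the same markers it stood at -0.036. In macrophage-like cells Cxcr2 stood at 9.82 (8.52 to 11.3) and 5.26 (4.28 to 6.39) CPM, or 1.13% and 0.737% of its granulocyte level. The 13 granulocyte markers stood in macrophage-like cells at medians of 1.27% and 0.546% of their own granulocyte level, with ranges of 0.696% to 10.4% and 0.195% to 9.64%. The upper ends are those of Msrb1, and the next marker, Mxd1, stood at 3.04% and 3.92%. Cxcr2 and Csf3r in macrophage-like cells lay within these ranges, and the part of granulocyte RNA in their levels there was not tested. Cxcl1 and Cxcr4, at 24% and 18.5% and 15.7% and 13.5%, lay above these ranges. A few cells with basophil or mast cell markers, 6 and 5 in number, held 5 and 7 Cxcr2 UMIs, the latter all in 1 cell.

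Outside granulocyte-like cells, Cxcr4 held a larger part of its granulocyte level than Cxcl2, Cxcr2 or Csf3r did, in every leucocyte class of the 11. Granulocyte-like cells had 322 (288 to 359) and 372 (314 to 436) CPM and B-like cells 164 (114 to 229) and 175 (112 to 259.9) CPM, the first and second of the 11 classes in both libraries. Next came NK-like cells in the WT-labelled and monocyte-like cells in the KO-labelled library. NK-like cells had 119 (68 to 193) and 74.1 (45.3 to 114) CPM, with intervals that overlapped those of the classes next to them in order in each library. Melanoma-like cells had 0.663 (0.181 to 1.7) and 1.47 (0.733 to 2.63) CPM. Its log2 ratio was 0.21 (-0.084 to 0.49) in granulocyte-like, -0.01 (-0.14 to 0.12) in macrophage-like and 0.30 (0.10 to 0.51) in monocyte-like cells, and the interval in monocyte-like cells left out 0. Within the 3 monocyte-like clusters, whose shares differed between the libraries, it was 0.30 (-0.046 to 0.65), 0.27 (-0.11 to 0.66) and -0.31 (-0.69 to 0.088), all with intervals that included 0. With classes taken from clusters the ratio of Cxcr4 was 0.38 in macrophage-like cells. In thinned cells 22.3% and 25.8% of granulocyte-like cells held a UMI, and 0.781% and 0% (which allows up to 1.52%) of melanoma-like cells, whose unthinned medians were 47424 and 35065 UMIs. Cxcl12, which encodes its ligand, gave 0 UMIs and 1 UMI in granulocyte-like cells and 5 and 1 in macrophage-like cells.

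Csf3 UMIs were few in both libraries and fewer in the KO-labelled one, which is 1 of the differences by which these genes were chosen. All deposited barcodes gave 124 UMIs in 68 cells labelled WT and 33 UMIs in 29 cells labelled KO, and kept cells 109 in 61 and 30 in 26. Granulocyte-like cells held 48 UMIs in 23 of 593 cells labelled WT, up to 13 in 1 cell, and 1 UMI in 1 of 275 cells labelled KO. That is 48.6 (35.8 to 64.4) against 2.49 (0.0631 to 13.9) CPM, a log2 ratio of -4.28 (-9.62 to -1.74), with 1 UMI on the KO-labelled side. The shares of cells with a UMI, 3.88% and 0.364%, compare with 0.547% and 0.172% of T-like cells, with 1 cell behind each of the values labelled KO. Macrophage-like cells held 30 UMIs in 14 cells labelled WT and 18 in 14 labelled KO, at 1.44 (0.97 to 2.05) and 0.937 (0.555 to 1.48) CPM, and their ratio, -0.62 (-1.55 to 0.27), had an interval that included 0. Granulocyte-like cells thus carried 44% of the Csf3 UMIs labelled WT and 3.33% of those labelled KO, where macrophage-like cells carried 60%.

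Csf3r stood at nearly the same level in both libraries when all granulocyte-like cells were summed: 1697 (1617 to 1780.5) CPM in granulocyte-like cells labelled WT (1676 UMIs) and 1756 (1629 to 1891) CPM in those labelled KO (704 UMIs). The log2 ratio was 0.049 (-0.08 to 0.18) and it moved between -0.53 in cells without and 0.33 in cells with a Retnlg UMI. In thinned cells 67.8% (63.4 to 72) and 67.1% (59.1 to 74.4) held a UMI, against 0% (which allows up to 0.563%) and 0.554% of T-like cells, and unthinned 75.5% and 76% against 2.92% and 2.92%. Monocyte-like cells came second with 90.1 (81.1 to 99.8) and 82 (76 to 88.4) CPM and then macrophage-like cells with 41.7 (39 to 44.6) and 40 (37.2 to 42.9) CPM. The intervals of the ratios in these classes, -0.14 (-0.32 to 0.051) and -0.059 (-0.20 to 0.082), included 0.

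**Figure D2:**
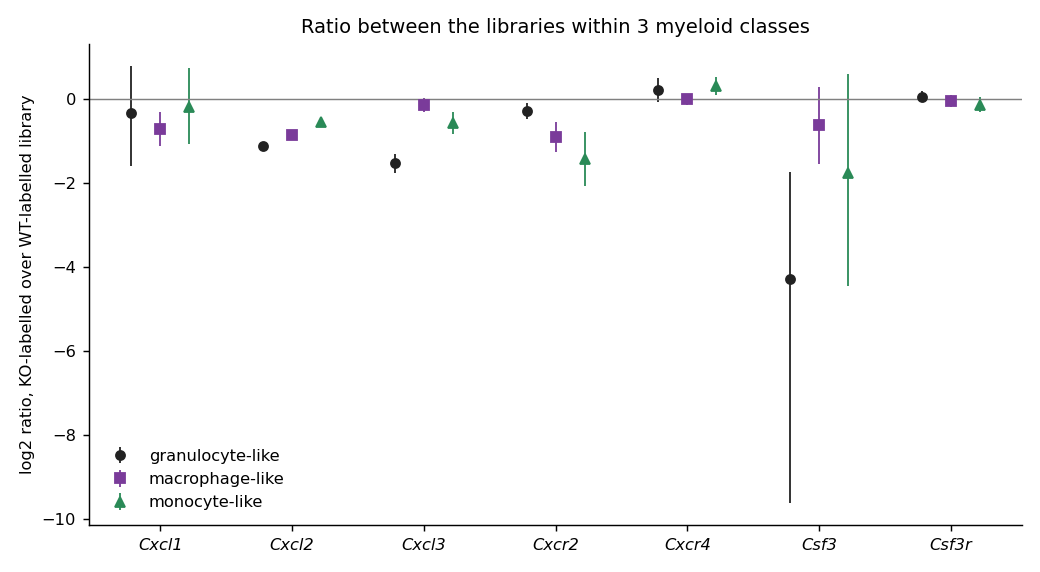
Log2 ratio of the KO-labelled over the WT-labelled library for each gene within granulocyte-like (black circles), macrophage-like (purple squares) and monocyte-like cells (green triangles), with exact conditional binomial intervals. Cxcl2 lies below 0 in all 3 classes, Csf3r lies near 0 in all 3, and the bar of Csf3 in granulocyte-like cells runs from -9.62 to -1.74 because 1 UMI stands on the KO-labelled side.

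Of the 7 genes, 5 reached 50 CPM in granulocyte-like cells in either library. Cxcl2 and Cxcl3 were lower by 2-fold or more in the KO-labelled library and none was higher, where 1.56% of the 2633 genes at that level were lower by 2-fold and 2.66% higher (4.22% in either direction). Since the members were picked for a difference in granulocytes, nothing is read from that count. The median log2 ratio of all genes in the class was 0.11, and relative to it Cxcl2 stood at -1.22. In macrophage-like cells 2 of the 7 reached 50 CPM and none was past 2-fold, against 0.391% of 2811 genes (0.249% higher and 0.142% lower where the label says KO). In monocyte-like cells 4 did and none was past 2-fold, against 0.743% of 2959 genes (0.541% higher and 0.203% lower). Cxcl2 in gated macrophage-like cells was the 5th lowest of 2811 genes, of which 90% lay between -0.22 and 0.32. With classes taken from clusters the ratio of Cxcl2 was -0.27, just below the lower bound, but these bounds are those of the gated class. The summed level of the 13 granulocyte markers moved the same way in other cells, at 1511 CPM labelled WT against 625 labelled KO in macrophage-like cells and 2169 against 1268 in monocyte-like cells, with no marker at 0 in the former and 1 at 0 in monocyte-like cells labelled KO. Its part in the Cxcl2 ratio of these classes was not tested. Cxcl2 in macrophage-like cells stood at 2.2% and 2.61% of its granulocyte level and Cxcl3 at 2.5% and 6.5%, above the marker medians of 1.27% and 0.546% and within the marker ranges, which reached 10.4% and 9.64% through Msrb1. Between macrophage-like clusters, in cells led by Mmp12 against cells led by Ch25h, Cxcl2 stood at 1372 against 121 CPM labelled WT and Cxcl3 at 158 against 4.69 CPM, while Cxcr2 stood at 3.82 against 3.45 CPM. Labelled KO, the same pairs were 877 against 57.5, 136 against 2.01 and 3.83 against 1.5 CPM. The summed level of 14 genes induced by tissue dissociation was 11643 and 10243 CPM in granulocyte-like cells and 2637 and 2783 CPM in macrophage-like cells, and its part in these ratios was not tested.

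Over whole libraries the ratios are given as a description, since the genes were picked for differences in granulocyte share and in Csf3. The share of all genes lower over whole libraries was not computed, and nothing is read from how many of the 7 were lower. The log2 ratio over all kept cells was -1.49 (-1.52 to -1.46) for Cxcl2, -1.06 (-1.16 to -0.97) for Cxcl3 and -0.68 (-0.95 to -0.40) for Cxcl1. It was -1.55 (-1.71 to -1.40) for Cxcr2, -2.04 (-2.67 to -1.44) for Csf3 and -0.56 (-0.63 to -0.48) for Csf3r, but 0.075 (-0.0072 to 0.16) for Cxcr4. With cells thinned to 1000 UMIs, shallower cells are left out and the others weigh the same. A larger share of the granulocyte-like cells labelled KO than of those labelled WT was left out in this way. The ratios were then -2.53 for Cxcl2, -1.96 for Cxcl3, -2.27 for Cxcr2, -3.68 for Csf3, -1.18 for Csf3r and -0.053 for Cxcr4. The part of the cells left out in these values was not tested. The ratios were also computed with the class make-up of the WT-labelled library given to both. Csf3r then stood at -0.036 and Cxcr2 at -0.49, while Cxcl2 stood at -1.03, Cxcl3 -0.82, Cxcl1 -0.61 and Csf3 -1.88. With granulocyte-like cells left out altogether, Csf3r stood at 0.00028, Cxcl3 at -0.28, Cxcl2 at -0.84, Cxcr2 at -1.19 and Csf3 at -1.27.

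**Figure D3:**
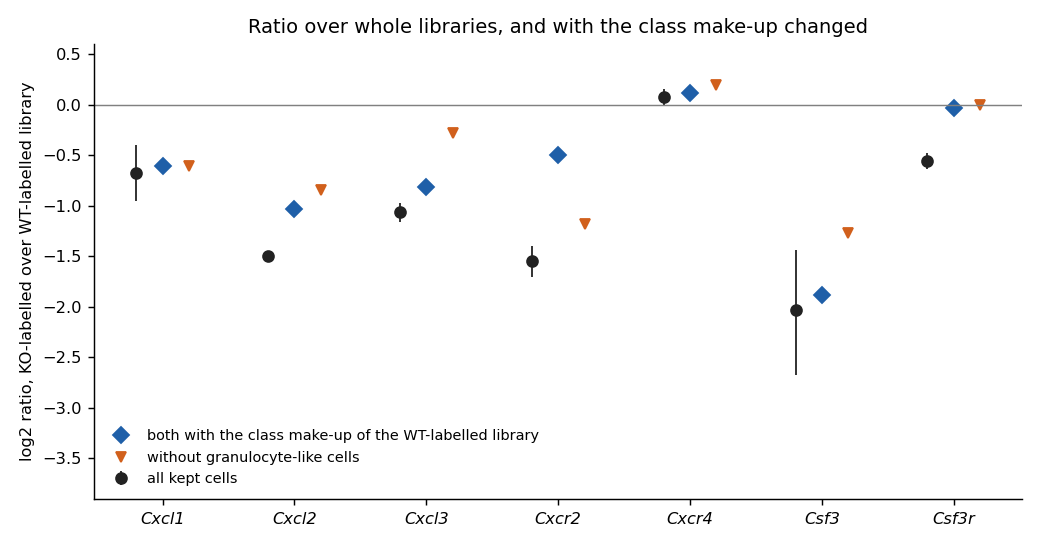
Log2 ratio of the KO-labelled over the WT-labelled library for each gene over all kept cells (black circles with exact intervals), with the class make-up of the WT-labelled library given to both (blue diamonds) and without granulocyte-like cells (orange triangles). Csf3r moves from -0.56 to -0.036 with equal make-up and Cxcl2 from -1.49 to -1.03.

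Granulocyte-like cells were not alike in these genes, and the ligands on the one side and Cxcr2 and Csf3r on the other ran in opposite directions among them. The unsupervised clustering, which also took in cells that the gate had left out, gave a cluster led by Retnlg, S100a8 and Mmp9, with 462 cells labelled WT and 227 labelled KO, and one whose leading gene was Lcn2, with 298 and 106, at median depths of 1485.5 and 1144, and 1217 and 982 UMIs. Retnlg, S100a8, S100a9 and Wfdc21 were among the leading genes of both clusters, so the names do not mark genes held by a single cluster. Cxcl2 stood at 36582 and 21673 CPM in the Lcn2-led cluster and at 3311 and 1815 CPM in the other. Cxcl3 followed it with 2993 and 1195 against 286 and 148 CPM, and Cxcl1 with 68.8 and 73.6 against 9.64 CPM and no UMI. Cxcr2 was the reverse, at 113 and 81.8 CPM in the Lcn2-led cluster and 688 and 656 CPM in the other, and so was Csf3r, at 649 and 548 against 1210.0 and 1458 CPM. Cxcr4 differed less, at 211 and 221 against 229 and 312 CPM. Csf3 was nearly all in the Lcn2-led cluster, with 57 UMIs in 28 cells labelled WT and 1 labelled KO, against 4 and 0 in the other.

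Within each of the 2 clusters Cxcl2 and Cxcl3 were again lower where the label says KO. The log2 ratio of Cxcl2 was -0.76 (-0.82 to -0.70) in the Lcn2-led and -0.87 (-0.97 to -0.77) in the Retnlg-led cluster, and that of Cxcl3 -1.32 (-1.58 to -1.08) and -0.95 (-1.31 to -0.60). Over both clusters together the Cxcl2 ratio was -0.94. Csf3r went to 0.27 (0.15 to 0.39) in the Retnlg-led cluster and -0.24 (-0.65 to 0.15) in the Lcn2-led one, and Cxcr2 to -0.07 (-0.25 to 0.11) and -0.47 (-1.62 to 0.54). Cxcr4 stood at 0.45 (0.17 to 0.72) and 0.063 (-0.62 to 0.70), higher where the label says KO in the Retnlg-led cluster beyond counting error.

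**Figure D4:**
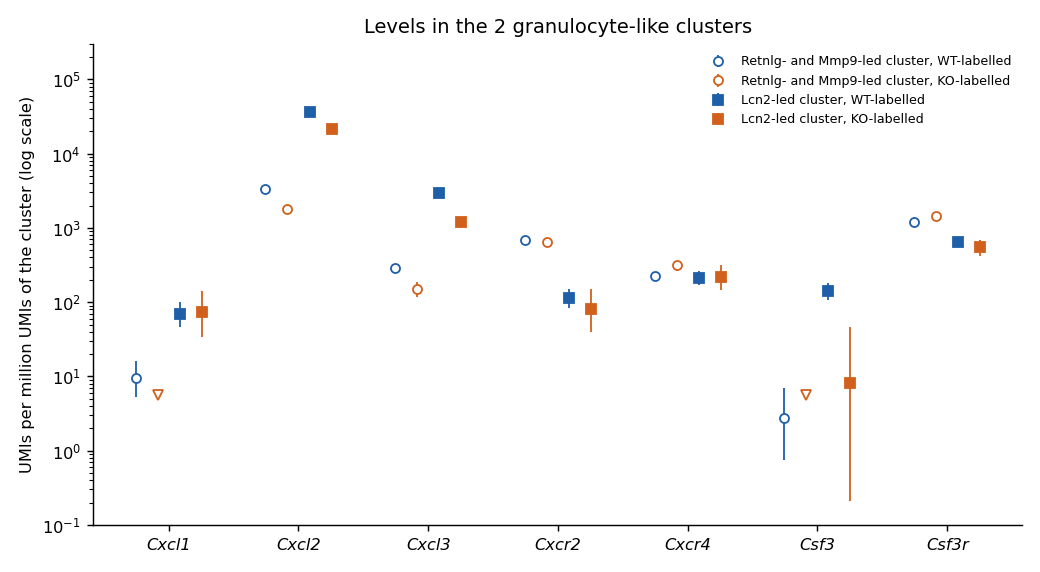
Level of each gene, in CPM on a log axis, in the granulocyte-like cluster led by Retnlg and Mmp9 (open circles) and in the one led by Lcn2 (filled squares), for the WT-labelled (blue) and KO-labelled (orange) library with exact Poisson intervals. Open triangles mark 0 UMIs at the level of 3 UMIs. Cxcl2 and Cxcl3 lie higher in the Lcn2-led cluster and Cxcr2 and Csf3r higher in the other, in both libraries, and Csf3 has 1 UMI in the KO-labelled library.

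The same order appeared when granulocyte-like cells thinned to 500 UMIs were divided by their own Cxcl2 UMIs, a division that fixes Cxcl2 but none of the other genes. Of the cells labelled WT, 179 had 0, 245 had 1 to 9 and 169 had 10 or more Cxcl2 UMIs, and of those labelled KO 144, 93 and 38. Csf3r fell over these 3 bins from 2737 (2405 to 3103) to 2188 and 1041 (835 to 1283) CPM labelled WT, and from 3083 (2691 to 3517) to 1763 and 1053 (643 to 1626) CPM labelled KO. Cxcr2 went from 1106 to 1208 and 272 CPM labelled WT and from 1333 to 581 and 421 CPM labelled KO. Cxcr4 stood at 603, 310.2 and 189 CPM labelled WT and at 472, 538 and 368 CPM labelled KO. Leaving Cxcl2 out of the total moved the last bin little, to 1099 and 1108 CPM for Csf3r. Cxcl3 went the other way, from 33.5 to 1069 and 3811 CPM labelled WT and from 55.6 to 258 and 2789 CPM labelled KO. At 1 to 9 Cxcl2 UMIs, the Poisson intervals of Cxcl3 did not overlap between the libraries, nor did those of Cxcr2. The shares of cells with a Cxcl3 UMI there, 13.9% (9.81 to 18.8) labelled WT and 7.53% (3.08 to 14.9) labelled KO, had intervals that overlapped. In the bins of 0 and of 10 or more, Cxcr2 was instead higher where the label says KO, with intervals that overlapped. Ccl3, a chemokine of inflammation, went with Cxcl2, from 458 to 9574 and from 375 to 11579 CPM, whereas Il1b, which encodes the inflammatory cytokine interleukin 1 beta, lay between 4708 and 6769 CPM in all 6 bins.

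**Figure D5:**
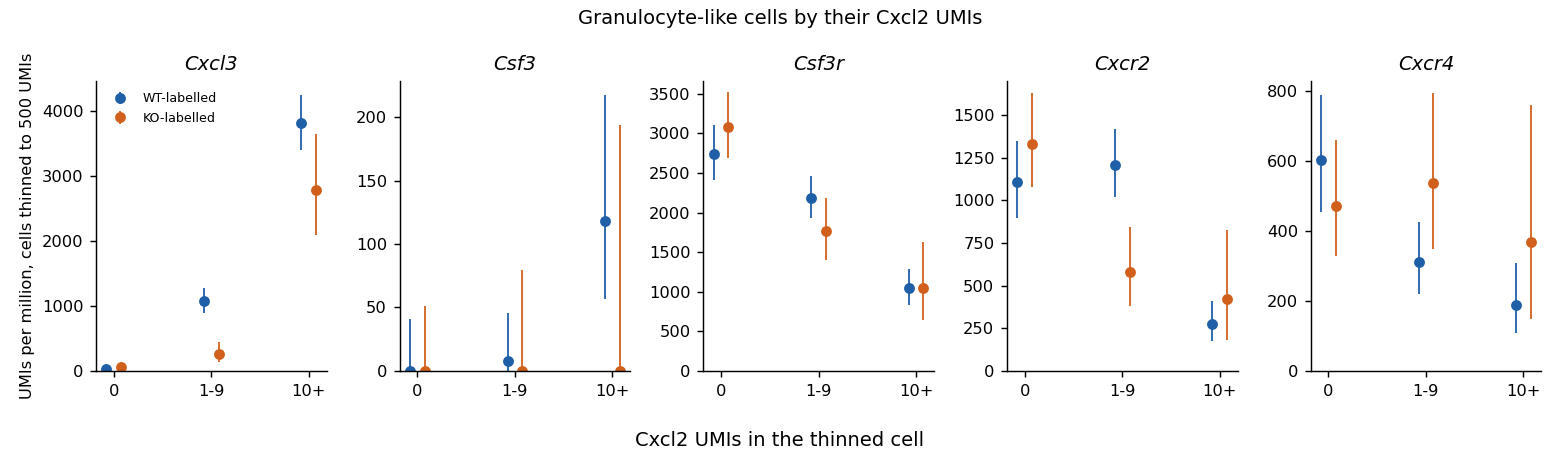
Levels of Cxcl3, Csf3, Csf3r, Cxcr2 and Cxcr4 in granulocyte-like cells thinned to 500 UMIs, by the number of Cxcl2 UMIs in the thinned cell, for the WT-labelled (blue) and KO-labelled (orange) library, in CPM with exact Poisson intervals. Csf3r falls from 2737 to 1041 CPM labelled WT and from 3083 to 1053 CPM labelled KO, while Cxcl3 rises.

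The 23 granulocyte-like cells labelled WT with a Csf3 UMI stood at the ligand-high end. They had 43627 (41819 to 45493) CPM of Cxcl2 against 14076 (13837 to 14318) CPM in the 570 cells without one, and 3385 (2895 to 3934) against 1241 (1171 to 1314) CPM of Cxcl3, at median depths of 1432 and 1324 UMIs. Their receptors were low, with 39.8 (4.82 to 144) against 911 (851 to 974) CPM of Cxcr2, 478 (306 to 711) against 1763 (1679 to 1849.7) CPM of Csf3r and 39.8 (4.82 to 144) against 337 (301 to 376) CPM of Cxcr4. They were thus cells with the G-CSF transcript and less of that of its receptor. Retnlg stood at 1394 against 4408 CPM, Tnf at 597 against 158, and Nfkbia, an inhibitor of NF-kB that NF-kB itself induces, at 6292 against 1676 CPM, whereas Il1b, at 5038 and 4724 CPM, was near equal. The 1 such cell labelled KO, with 1449 UMIs, held 54 Cxcl2 UMIs and 1 UMI each of Cxcr2 and Csf3r.

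Divided by Retnlg instead, which was found in 58.0% (WT-labelled) and 57.1% (KO-labelled) of granulocyte-like cells, cells without it had the higher Cxcl2, at 22434 against 12136 CPM labelled WT and 12931 against 3041 labelled KO, and the lower Csf3r, at 1348 against 1873 and 934 against 2355 CPM. The Cxcl2 gap between the libraries was wider among cells with Retnlg, with a log2 ratio of -2.00 against -0.79 without it. These cells were not thinned, and those with Retnlg were deeper, at medians of 1458.5 against 1173 UMIs labelled WT and 1125 against 923 labelled KO. Thinned to 1000 UMIs, the shares of cells with Retnlg were 58.4% labelled WT and 63.2% labelled KO. The part of depth in this division was not tested.

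Macrophage-like cells were not alike in the ligands either. The macrophage-like cluster led by Mmp12, Inhba and Nos2 (299 and 656 cells) had 1372 and 877 CPM of Cxcl2, 158 and 136 of Cxcl3 and 208 and 199.8 of Cxcr4, the highest of the 5 macrophage-like clusters for each of these genes in both libraries. It took up 5.53% of the kept cells of the WT-labelled and 8.60% of those of the KO-labelled library, and Cxcl2 within it was lower there, with a log2 ratio of -0.65 (-0.72 to -0.57). It was the largest macrophage-like cluster of the KO-labelled library, while that of the WT-labelled one was led by Ch25h, Ccl8 and C1qa (581 and 607 cells), where Cxcl2 stood at 121 and 57.5 CPM. Cxcl2 was lower where the label says KO in each of the 5 macrophage-like clusters, with log2 ratios from -1.37 to -0.65, yet over the 5 clusters together the ratio was -0.27, the cluster with the most Cxcl2 taking a larger share of the cells labelled KO.

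Other genes of neutrophil recruitment were counted in 4 lists of 42 genes in all. Of the 9 further ligands, 6 reached 50 CPM in granulocyte-like cells, where 1 was 2-fold higher in the KO-labelled library and 1 lower, against 2.66% and 1.56% of all genes there, with a list median of -0.14 against 0.11 over all genes. The lower one was Pf4, a chemokine of platelets and macrophages at 507 and 242 CPM, and the higher one Cxcl16, a scavenger receptor and ligand of CXCR6, at 34.4 and 79.8 CPM. Their log2 ratios were -1.07 (-1.40 to -0.75) and 1.21 (0.47 to 1.95). Cxcl16 reached 50 CPM only in the library where it was higher, so its place in the count follows from that difference. Of the list's ligands of CXCR2, Cxcl5 gave no UMI and Ppbp 4 and 0 in granulocyte-like cells, while Mif, a cytokine that also binds CXCR2 and CXCR4, stood at 1325 and 1529 CPM. In macrophage-like cells 6 of the 9 were measured and none was past 2-fold, against 0.391% of genes, and in monocyte-like cells Cxcl10 (307 and 656 CPM) and Ccl4 (198 and 426 CPM) were higher where the label says KO, in a class where 0.541% of genes were. Both attract T cells, among others. The make-up of the class differed: the cluster led by the interferon-induced genes Rsad2, Ifit3b and Ifit2 held 118 cells labelled WT (2.18%) and 684 labelled KO (8.97%), and its part in these 2 differences was not tested. Ppbp stood at 15.7 and 1.21 CPM in monocyte-like cells, under 50 CPM in both libraries.

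Of the 10 further receptors, 8 reached 50 CPM in granulocyte-like cells and 2 were 2-fold lower where the label says KO, against 1.56% of the 2633 genes, with a list median of -0.32 against 0.11 over all genes. These were Cxcr1, the sister receptor of Cxcr2 (52.7 and 9.98 CPM from 52 and 4 UMIs, at 50 CPM only in the library where it was higher), and Fpr1, which senses formylated bacterial peptides, at 243 and 99.8 CPM with a log2 ratio of -1.28 (-1.81 to -0.80). None of the 4 measured in macrophage-like or the 5 in monocyte-like cells was past 2-fold, where 0.391% and 0.743% of all genes were. Of the 7 growth factors and receptors related to G-CSF, 4 were measured in granulocyte-like cells and none was past 2-fold, against 4.22% of genes. Csf2rb, the shared receptor chain for GM-CSF, interleukin 3 and interleukin 5, stood at 418 and 524 CPM, and Csf2, the GM-CSF gene, gave no UMI there.

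Of the 16 inducers and signalling genes, 13 were measured in granulocyte-like cells and 2 were 2-fold lower where the label says KO, against 1.56% of the 2633 genes, with a list median of -0.18 against 0.11 over all genes. They were Il1a, which encodes interleukin 1 alpha, at 93.2 and 24.9 CPM, and Nfkbia, at 1911 and 950.3 CPM. Their log2 ratios were -1.90 (-3.01 to -0.96) and -1.01 (-1.17 to -0.85), and Il1a, too, reached 50 CPM only in the library where it was higher. Il1b, at 4740.4 and 4457 CPM, and Socs3, a feedback inhibitor that G-CSF signalling induces, at 369 and 362 CPM, were within 2-fold, and so were the other 9. In macrophage-like cells 8 of the 16 were measured and in monocyte-like cells 11, and none was past 2-fold, against 0.391% and 0.743% of all genes.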

How the data were processed

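Live CD45+ cells of B16 tumours were profiled by 10x Genomics droplets (3′ kit, v3), and each genotype gave 1 library. The authors aligned reads to mm10 with Cell Ranger (version 4.0.0 per the file headers; annotation not given in the sources used here) and deposited 1 matrix of raw UMI counts for 31053 genes, with a table that gives the library of each barcode. Levels carry no scaling by transcript length and were not compared between genes. Whether the libraries' depths were equalised is not given in the sources used here. The 7 genes and all gene lists were chosen with earlier results of these data known. Cells with at least 200 genes and at most 10% mitochondrial UMIs were kept. Scrublet in scanpy 1.11.5 marked 1 cell per library as a doublet by its automatic threshold and was taken to have failed, so the top-scoring cells were removed at 0.8% per 1000 cells (256 labelled WT, 532 labelled KO).

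A cell was placed in the class whose markers, each scaled and capped, averaged highest in it, if at least 3 of its markers had a UMI and it led the next class by 0.05. That lead was set after seeing how many cells stayed ungated, which were 913 labelled WT (16.9%) and 1623 labelled KO (21.3%). Alternatively, cells were clustered (leidenalg 0.10.2, resolution 1, 30 components, 20 neighbours, 2000 variable genes without the 7 genes and the lists) and clusters named by the same markers. UMIs were summed per class. Ratios of named genes carry no pseudocount. For the counts over the whole gene table, genes needed 50 CPM in 1 of the libraries, a pseudocount of 1 CPM was added and 2-fold was taken as the call. Named genes were the 7, Mettl3, Lyz2, list genes past 2-fold or paired with one of the 7, and the 3 genes most correlated with each. Retnlg, Ccl3, Il1b, Tnf, Csf2rb, Csf2 and Socs3 were also named after their values were seen. Promoters came from RefSeq on GRCm38.p6, with 6 of the 7 genes matched, and gene positions from GENCODE M21. The ratio code was tested on simulated counts. Numbers of barcodes, cells and UMIs per library, given above, set the precision.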

Additional observations from a re-analysis of the deposited data

Results flagged for a closer look

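Barcodes that the cell filter or the doublet removal left out also held UMIs of these genes, above the 3 UMIs that a count of 0 allows. In the WT-labelled library these were 5532 UMIs of Cxcl2, 418 of Csf3r, 339 of Cxcl3, 231 of Cxcr4, 173 of Cxcr2, 27 of Cxcl1 and 15 of Csf3. In the KO-labelled library they were 2067 of Cxcl2, 471 of Csf3r, 403 of Cxcr4, 136 of Cxcl3, 92 of Cxcr2 and 23 of Cxcl1. No group had the 4 samples that a check for outlying samples needs.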

How the results depend on the processing

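Of the results that answer a comparison, 97 values under other settings moved by less than their counting interval, 58 moved by more, and 2 whose interval had left out 0 changed sign. Of the values not counted among these, 217, 78 and 3 did so. Where the interval had included 0, a change of sign was not counted apart. Such values count as moved if they fell outside the interval, as for Csf3r and Cxcr4. Those within it count among the values that moved by less, as for Cxcl1 in granulocyte-like cells, at 0.31 with the stricter gate against -0.34. The log2 ratio in granulocyte-like cells, for the gene named, was -1.17 with doublets kept (Cxcl2). With classes taken from clusters it was -0.94 for Cxcl2, -0.036 for Cxcr2 and 0.24 for Csf3r, and with the stricter gate -0.88 for Cxcl2 and -1.05 for Cxcl3. As a mean of per-cell CPM, which gives each cell equal weight, it was -0.95 for Cxcl2 and 0.25 for Csf3r. Thinned to 1000 UMIs it was -1.30 for Cxcl2 and -1.22 for Cxcl3. Relative to the median of all genes Cxcl2 stood at -1.22. Without the 1 cell of each library with the most UMIs of the gene it was -1.21 for Cxcl2 and -1.80 for Cxcl3. Over all kept cells it was -1.58 for Cxcl2 and -1.17 for Cxcl3 with doublets kept. Thinned to 1000 UMIs, with shallower cells left out and the others of equal weight, it was -2.53 for Cxcl2, -1.96 for Cxcl3 and -2.27 for Cxcr2. So thinned it was also -0.053 for Cxcr4, -3.68 for Csf3 and -1.18 for Csf3r. With equal class make-up it was -1.03 for Cxcl2, -0.82 for Cxcl3, -0.49 for Cxcr2 and -0.036 for Csf3r. Without granulocyte-like cells it was -0.84 for Cxcl2, -0.28 for Cxcl3, -1.19 for Cxcr2, 0.19 for Cxcr4, -1.27 for Csf3 and 0.00028, a change of sign, for Csf3r. In macrophage-like cells with clusters it was -0.27 for Cxcl2, against -0.86, 0.36 for Cxcl3, against -0.15, and 0.38 for Cxcr4, against -0.01, and Cxcl3 stood at -0.75 with the stricter gate. In monocyte-like cells it turned to 0.82 for Cxcl3 with the stricter gate and to 0.19 for Cxcr2 with clusters. The granulocyte share was 14.1% and 4.37% with clusters and 9.49% and 2.96% with the stricter gate, labelled WT and KO. The share of granulocyte-like cells labelled KO with Retnlg was 63.2% thinned to 1000 UMIs. Genes past 2-fold in granulocyte-like cells, 111 of 2633, were 416 with a floor of 20 CPM and 4431 with none, since more genes of few UMIs are then counted, and 39 with clusters. The following settings were chosen after seeing the data. In granulocyte-like cells thinned to 500 UMIs the ratio was -0.92 for Cxcl2, 0.22 for Csf3r and 0.065, a change of sign, for Cxcr2. Without the 5 cells with the most UMIs of the gene it was -1.37 for Cxcl2 and -2.47 for Cxcl3, and 0.47 for Cxcl3 in monocyte-like cells. In the Retnlg-led cluster it was -0.87 for Cxcl2, -0.95 for Cxcl3, -0.070 for Cxcr2 and 0.27 for Csf3r, and in the Lcn2-led one -0.76 for Cxcl2 and -0.24 for Csf3r. In cells with Retnlg it was -2.00 for Cxcl2, -2.29 for Cxcl3, -0.065 for Cxcr2 and 0.33 for Csf3r, and without it -0.79, -1.27, -0.65 and -0.53, with -0.14 for Cxcr4. Without ungated cells Cxcl2 over all kept cells stood at -1.57. Where no reason is given, the cause was not tested. No paired analysis was possible because each group has 1 library. Depth limits Csf3 and Cxcl1 most, at 1 and 9 UMIs in granulocyte-like cells labelled KO.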

Other observations

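Over the 11 classes with at least 20 cells in each library, taken in both libraries (22 points that share 2 libraries), the gene whose log2(CPM + 1) followed each of the 7 most closely was sought among 6534 genes. For Cxcl2 these were S100a8 (Pearson r 0.94), Hcar2 (0.93) and E230032D23Rik (0.92). For Cxcl3 they were Clec4d (0.90), Mmp8 (0.90) and Kcnj2 (0.89), and for Cxcl1 Crispld2 (0.92), Asprv1 (0.85) and Tarm1 (0.83). For Cxcr2 they were Lcn2 (0.94), Retnlg (0.93) and Steap4 (0.93), and for Csf3r Carhsp1 (0.95), Clec4e (0.94) and Msrb1 (0.93), of which Msrb1 is a granulocyte marker of the gate. Cxcr4 stood apart with Junb (0.95), Btg1 (0.94) and Nfkbid (0.93). Csf3, with few UMIs, had lower values, Cwc25 (0.80), Cxcr1 (0.75) and Klhdc4 (0.74). Among the 7, Cxcl2 and Cxcl3 had 0.88, Csf3r had 0.84 with Cxcr2, 0.83 with Cxcl2 and 0.83 with Cxcl3, Cxcl2 and Cxcr2 had 0.82, and Cxcr4 no more than 0.49 with any ligand or with Cxcr2. Granulocyte-like cells hold the highest level of most of these genes, and the points are not independent.

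In granulocyte-like cells thinned to 500 UMIs, Cxcr2 was found in 37.7% of the cells with a Csf3r UMI and 21.5% of those without one labelled WT, and in 41.3% and 22.5% labelled KO. Cxcl2 was found in 61.6% and 79.3% labelled WT, and in 38.1% and 60.0% labelled KO. The 2 receptors were thus found together more often, and Cxcl2 with Csf3r less often, than in the remaining cells, in both libraries. These are descriptions over cells of 2 libraries and were not tested.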
